A study of Mus musculus with 42 samples.

Results

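The Zscan4 cluster of the mouse was described here in pre-implantation embryos through its members Zscan4a, Zscan4b, Zscan4c, Zscan4d, Zscan4e and Zscan4f, which were 6 of the 15737 genes with a symbol listed once in the deposited expression table. The members were chosen by symbol and not by their values. Zscan4 proteins carry a SCAN domain and C2H2 zinc fingers, and the genes are known as markers of the 2-cell embryo and of the rare 2-cell-like cells found in cultures of embryonic stem cells. They are transcribed when the zygotic genome is first switched on, the transcription factor Dux is a known activator of them, and they are known for their part in telomere lengthening by recombination. They lie side by side as recent duplicates of each other, so a short RNA-seq read often fits several of them.

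The study asked how NAD+ and the deacetylase SIRT1 bear on the removal of a histone mark, H3K27ac, that is laid down in zygotes and erased as the genome is activated. RNA was sequenced from 18 samples in 9 groups of 2, each made from 3 embryos of superovulated ICR mice mated to ICR males, without the zona pellucida; 24 further samples with H3K27ac profiles were not analysed here. Embryos were taken at 34 h (early 2-cell, untreated), 48 h (late 2-cell) and 58 h (4-cell) after hCG, the hormone that triggers ovulation. Late 2-cell embryos came as con (control), with FK866 at 0.01 µM, with FK866 at 0.01 µM plus NMN at 10 µM, with TSA at 10 nM, and with Sirt1 as the treatment; 4-cell embryos came as con, FK866 and FK866 plus NMN at the same doses. FK866 blocks NAMPT, the enzyme that recycles nicotinamide to NAD+; NMN is the product of that enzyme; TSA (trichostatin A) inhibits histone deacetylases of the zinc-dependent classes. In the Sirt1 group, zygotes were injected with siRNA, Trim21 mRNA and an antibody against SIRT1, so both the transcript and the protein were targeted in whole embryos. Embryos injected with a scrambled siRNA and Trim21 mRNA were not among the groups analysed here, so the Sirt1 group was set against con. The paper names DMSO, the solvent of the inhibitors, as their negative control. The labels do not say whether con embryos received it, so con may differ from early 2-cell embryos by solvent too. Nothing in the labels ties a sample to an animal or a culture, so p-values measure the spread between these samples only, which may be technical.

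The table held 1 column for each of the 9 groups, in FPKM (fragments mapped to a gene, scaled to its exon length and to the library total). In 7 columns the value was the sum of 2 libraries and in 2 columns, those with 4-cell FK866 and with 4-cell FK866 NMN in their headers, it was 1 library. Because a value times the exon length is a whole number of reads over the library total, the reads of each gene in each of the 16 libraries could be recovered, for 88.16% to 94.8% of the values above 0 and for every Zscan4 value. The libraries held 3169677 to 10003481 counted reads, of which 109 to 7215 fell on the 6 members. Within a column the library with more reads in all is called A and the other B, since neither carries a replicate number. Values below are FPKM per library.

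The headers of 5 columns disagreed with the gene tables that accompany the study, and each result is therefore given both ways. In all 84 genes compared, the column headed late 2-cell TSA held the values tabulated for 4-cell control, the column headed late 2-cell Sirt1 those for 4-cell FK866, and the column headed 4-cell con those for 4-cell FK866 with NMN. The column headed 4-cell FK866 moved in the tabulated direction for TSA in 1194 of 1197 genes. The column headed 4-cell FK866 NMN moved in that for Sirt1 in 715 of 820 genes. The next best for Sirt1, with 702, was late 2-cell FK866, whose own header and tabulated values matched in all 118 genes compared. Untreated early 2-cell embryos had 683 and the column headed 4-cell FK866 had 619. The assignment to Sirt1 rests on direction alone and is the least sure. The level of Sirt1 itself, the gene targeted in the Sirt1 group, was 76.4 FPKM in the late 2-cell con column, 52.7 in that headed late 2-cell Sirt1 and 11.3 in the column headed 4-cell FK866 NMN, which the tables give to Sirt1, but it was 7.61 in the column headed 4-cell FK866 and 9.84 in untreated early 2-cell embryos as well, so a low level does not mark the Sirt1 group. Of the genes known from cumulus cells, which surround the egg, 3 of 9 were in the table and summed to 8.12 FPKM in the column headed 4-cell FK866, all of it Cyp19a1, to 5.41 in that headed 4-cell FK866 NMN and to under 1 FPKM in the other 7; of 5 sperm genes 0 were in the table. Summed maternal transcripts such as Btg4, Zar1 and Ooep (8 of 13 in the table) stood at 3529 FPKM in early 2-cell embryos, 1809 in the late 2-cell con column, 59.2 to 156.1 in the columns headed late 2-cell TSA, late 2-cell Sirt1 and 4-cell con, and 1213 and 1061 in the single libraries headed 4-cell FK866 and 4-cell FK866 NMN. The 3 columns low in maternal transcripts were also those lowest in Zscan4, whatever stage their header named, and the part of stage in the comparisons below was not tested apart from treatment.

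In the GRCm38 genome with GENCODE M21 genes, the 6 members spanned 608.1 kb of chromosome 7, and with the 3 symbols Zscan4-ps1, Zscan4-ps2 and Zscan4-ps3 the cluster spanned 819.9 kb. Neighbouring genes of the cluster lay 54.6 to 140.2 kb apart, and each had 4 exons in its longest transcript. Zscan4a (ENSMUSG00000110097, chr7:10794242-10799057, minus strand) is annotated as an unprocessed pseudogene with no coding sequence. Zscan4b (ENSMUSG00000095339, chr7:10900740-10905050) and Zscan4e (ENSMUSG00000095936, chr7:11306378-11310682), both on the minus strand, code for 505 codons. Zscan4c (ENSMUSG00000054272, chr7:11005745-11010547, plus strand), Zscan4d (ENSMUSG00000090714, chr7:11161374-11166159, minus strand) and Zscan4f (ENSMUSG00000070828, chr7:11397915-11402318, plus strand) code for 506 codons. The 3 genes with a pseudogene symbol are annotated in this release as coding, with 506 codons each.

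**Figure D1:**
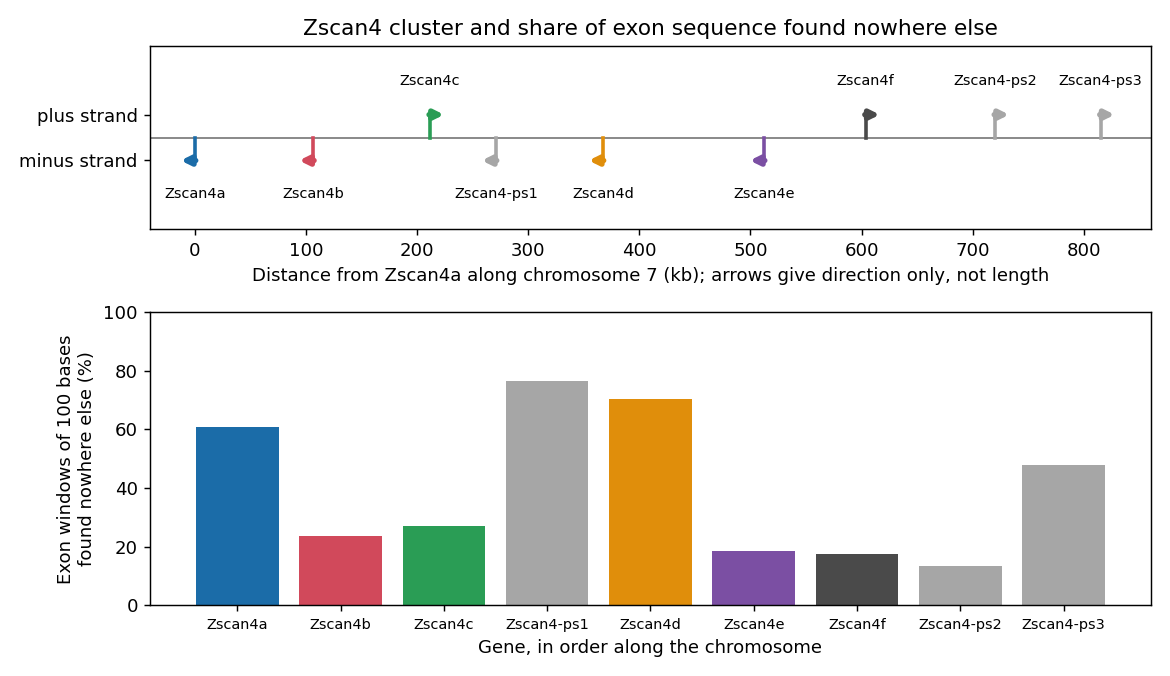
Upper panel, the 9 Zscan4 genes by distance from Zscan4a along chromosome 7 in kb, with arrows for the direction of transcription. Lower panel, the percent of exon windows of 100 bases found nowhere else in annotated transcripts or within 1 Mb of the cluster. Zscan4d (70.4%) and Zscan4a (60.9%) had the most such windows among the 6 members and Zscan4f (17.6%) the fewest.

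The members' sequences set how well their reads can be told apart. Zscan4b and Zscan4e were identical in 99.7% of 1722 aligned transcript bases and Zscan4c and Zscan4f in 99.5% of 1806, while the pairs with Zscan4d ranged from 96.6% to 97.8%. Windows of 100 exon bases were looked up in annotated transcripts and in the cluster with 1 Mb on each side, not in the whole genome. A window was found nowhere else there in 70.4% of cases for Zscan4d and 60.9% for Zscan4a. The share was 27.2% for Zscan4c, 23.7% for Zscan4b, 18.5% for Zscan4e and 17.6% for Zscan4f. How the authors' counting treated reads with several matches is not given in the sources used here. The values of Zscan4b, Zscan4c, Zscan4e and Zscan4f are therefore uncertain as single genes, and those of Zscan4a and Zscan4d less so.

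The upstream sequences of the members that RefSeq places on GRCm38.p6 are shown because the levels of these genes followed each other across the columns. RefSeq promoters were given for 4 of the 6 members, and the 250 bases before each start follow, 5′ to 3′ on the gene's own strand. Capitals mark the 12 positions that differ among those with a base in all 4 sequences; differences at positions that at least 1 of them does not reach stay in lower case.
Zscan4b (chr7:10905051-10905300, minus strand): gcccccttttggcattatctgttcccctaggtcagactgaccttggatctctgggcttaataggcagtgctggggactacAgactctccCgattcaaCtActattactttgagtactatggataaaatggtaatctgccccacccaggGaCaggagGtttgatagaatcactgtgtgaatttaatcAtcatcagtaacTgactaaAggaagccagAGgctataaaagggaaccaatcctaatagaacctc
Zscan4c (chr7:11005495-11005744, plus strand): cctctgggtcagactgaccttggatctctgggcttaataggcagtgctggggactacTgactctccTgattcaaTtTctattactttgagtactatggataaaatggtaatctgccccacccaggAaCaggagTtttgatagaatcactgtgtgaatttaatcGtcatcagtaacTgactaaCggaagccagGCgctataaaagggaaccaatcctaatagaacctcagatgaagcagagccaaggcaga
Zscan4d (chr7:11166149-11166398, minus strand): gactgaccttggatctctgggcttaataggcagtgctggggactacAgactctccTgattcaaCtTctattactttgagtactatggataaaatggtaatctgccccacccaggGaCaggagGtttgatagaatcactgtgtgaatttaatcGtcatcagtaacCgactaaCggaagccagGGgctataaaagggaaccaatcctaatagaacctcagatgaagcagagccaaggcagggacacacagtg
Zscan4f (chr7:11397665-11397914, plus strand): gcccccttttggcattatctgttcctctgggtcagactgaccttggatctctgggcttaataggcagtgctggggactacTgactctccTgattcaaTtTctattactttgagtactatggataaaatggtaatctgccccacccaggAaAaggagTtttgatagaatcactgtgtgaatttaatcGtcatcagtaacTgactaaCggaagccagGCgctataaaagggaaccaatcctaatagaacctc

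Of 216 aligned columns with a base in all 4 promoters, 204 were identical. Zscan4c and Zscan4f were the closest, at 99.6% of 227 aligned bases, and Zscan4b and Zscan4c the least alike, at 94.7% of 227. Both strands were searched for exact matches to short motifs, so near matches and longer motifs were not looked for. TATAAA stood once in each of the 4 promoters, beginning 31 bases before the start in Zscan4b and Zscan4f, 54 in Zscan4c and 65 in Zscan4d; 12.37% of 32851 RefSeq promoter windows held it. CCAAT also stood once in each, beginning 19, 42, 53 and 19 bases before the start in Zscan4b, Zscan4c, Zscan4d and Zscan4f, against 33.85% of all windows. TGCACAC, a motif that ZSCAN4 protein is known to bind, was in none of the 4 windows and in 3.67% of all. CAATCA, a stretch shared by many Dux motifs, was in none of the 4 and in 12.68% of all. That stretch is only part of such motifs, so its absence does not show that these promoters lack a Dux site. The distances of both motifs differed between genes by the same offsets, and their order was the same in each.

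The summed level of the 6 members differed by more than an order of magnitude between columns, and the 9 columns fell in the order that follows. The late 2-cell con column was highest at 403.3 FPKM (libraries at 501.1 and 305.4), followed by late 2-cell FK866 at 341.1 (272.7 and 409.6) and late 2-cell FK866 NMN at 303.6 (183.9 and 423.3). The libraries of these 3 columns overlapped. The column headed 4-cell FK866 NMN, 1 library, stood at 219.3, inside the range of the late 2-cell FK866 NMN pair. Early 2-cell embryos had 125.0 (155.4 and 94.5), and the column headed 4-cell FK866, 1 library, had 91.0. The lowest columns were those headed 4-cell con at 34.7 (29.4 and 40.1), late 2-cell Sirt1 at 28.3 (18.4 and 38.2) and late 2-cell TSA at 9.39 (7.49 and 11.3). The first of these overlapped the second, and both libraries of the last lay below all others. The 6 members took 7052 of 6523488 and 2746 of 4164896 counted reads in the late 2-cell con pair, and 109 of 6855134 and 160 of 6527679 in the pair headed late 2-cell TSA. In samples of whole embryos, fewer cells with a transcript and less RNA per cell cannot be told apart.

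Within libraries, Zscan4f or Zscan4d was the highest member in most cases. Zscan4f was highest in 8 of the 16 libraries, Zscan4d in 7 and Zscan4c in 1, and Zscan4b and Zscan4e were the lowest pair in 15. In the late 2-cell con column the order was Zscan4d (147.3 and 103.7 FPKM), Zscan4f (136.7 and 79.3), Zscan4c (126.4 and 47.7), Zscan4a (58.0 and 53.0), Zscan4e (22.3 and 12.9) and Zscan4b (10.4 and 8.93). The ranges of Zscan4d, Zscan4f and Zscan4c overlapped, those of Zscan4c and Zscan4a overlapped, and Zscan4e and Zscan4b lay below. Zscan4a, the member without a coding sequence in this annotation, thus reached over 50 FPKM in both libraries, above the coding members Zscan4b and Zscan4e.

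**Figure D2:**
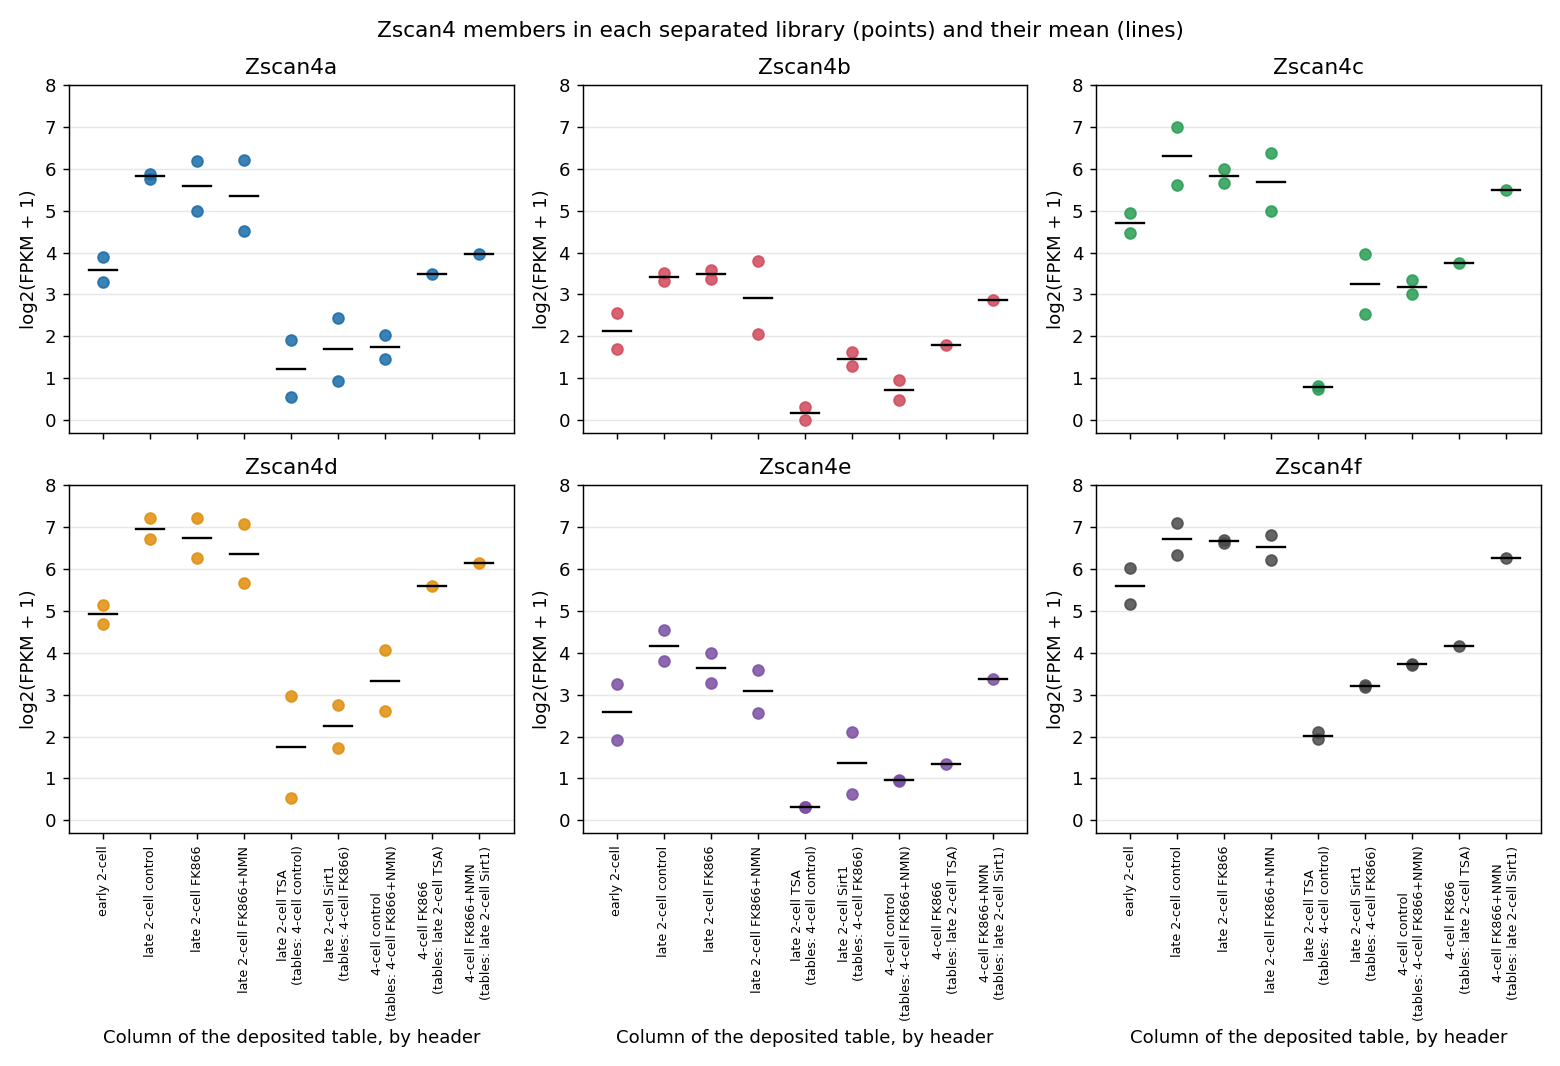
Level of each member, as log2(FPKM + 1), in each separated library (points) with the mean of a column (black lines); columns are named by header, with the group that the study's tables give in brackets. The columns headed late 2-cell con and FK866 stand high for every member, and the column headed late 2-cell TSA holds the lowest mean of each, with Zscan4c at 0.77 and 0.67 FPKM there.

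Early 2-cell and late 2-cell con embryos were compared to follow the cluster through genome activation without an inhibitor. Every member was higher in both late libraries than in both early ones. How often libraries separate in this way over all genes was not computed, here or in the comparisons below. Zscan4a stood at 13.9 and 8.79 FPKM in the early libraries and at 58.0 and 53.0 in the late ones. Zscan4d stood at 34.4 and 24.8 in the early and 147.3 and 103.7 in the late libraries, and Zscan4f, the highest member of early embryos, stood at 63.6 and 34.6 before and 136.7 and 79.3 after. On the log2(FPKM + 1) scale, where the added 1 shrinks the differences of low genes, the values ran from 1.13 ± 0.42 (SE) for Zscan4f to 2.23 ± 0.77 for Zscan4a. By limma over 7615 genes, 0 of the 6 members reached an adjusted p under 0.05 (adjusted p 0.0674 to 0.179), although 5 of 6, all but Zscan4b, had an unadjusted p under 0.05. Among all genes tested, 19.8% were called in either direction, and 2631 had an unadjusted p under 0.05. By the size of the fold alone, 6 of 6 members were at least 2-fold higher, against 32.2% of 9514 genes. The median of the members' differences was 1.58, and that of all genes tested was -0.01. When only the libraries of these 2 columns were fitted, an alternative chosen after seeing the data, 2 of the 6 members were called. In that fit 19.6% of 7615 genes were called in either direction.

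Zscan4-ps2 and Zscan4-ps3 were higher late than early by 1.00 ± 0.46 and 0.75 ± 0.41 (adjusted p 0.158 and 0.21), while Zscan4-ps1 showed a difference of -0.01 ± 0.55 with overlapping libraries. Of the genes fixed as the 2-cell programme around Zscan4, 14 of 29 were in the table. Of 11 tested, where 19.8% of all genes were called in either direction, 3 were higher and 0 lower. Those were Tdpoz1 and Tdpoz5, which encode BTB-domain proteins and differed by 4.01 ± 0.83 and 3.56 ± 0.51, and Ubtfl1, a UBF-like gene, at 2.39 ± 0.41 (adjusted p 0.00846, 0.00119 and 0.00321). Duxf3, a gene of the Dux family, gave 25 and 36 reads in the early 2-cell libraries and 2.26 FPKM per library, against 0.589 in the late 2-cell con column. Hdac1, which encodes a histone deacetylase and was the gene called among 11 repressors tested, was higher in the late column by 3.29 ± 0.49 (adjusted p = 0.00158).

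FK866 was compared with control at the late 2-cell stage to ask whether blocking NAD+ recycling moves these genes. For all 6 members the libraries of the groups overlapped. Zscan4d stood at 75.3 and 148.0 FPKM with FK866 against 147.3 and 103.7 without, and Zscan4c at 49.4 and 62.6 against 126.4 and 47.7. Zscan4f gave 97.3 and 102.7 with FK866, both inside the control range of 79.3 to 136.7. The differences ran from -0.52 ± 0.70 for Zscan4e to 0.07 ± 0.64 for Zscan4b, and 0 of 6 members were called (limma adjusted p 0.789 to 0.978; 0 at an unadjusted p under 0.05). Of 7260 genes tested, 0.716% were called in either direction. The 95% intervals of the members reached from -2.12 to 1.67, both for Zscan4d, and the narrowest, that of Zscan4f, ran from -0.99 to 0.87. Differences within those bounds were thus not excluded here, and the bounds are not a limit of detection. This comparison and those that follow with late 2-cell con share its 2 libraries.

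NMN, added to FK866 to restore NAD+, was compared with FK866 alone and with control at the same stage. With both agents the libraries lay far apart, at 49.6 and 132.5 FPKM for Zscan4d, at 21.8 and 73.2 for Zscan4a and at 73.4 and 111.3 for Zscan4f. Library A was the lowest of the 6 libraries of late 2-cell con, FK866 and FK866 NMN for all 6 members, whereas library B lay above the lower control library for 5 of them, all but Zscan4e. Against FK866 alone the differences were -0.56 ± 0.70 (Zscan4e) to -0.13 ± 0.65 (Zscan4c), with 0 of 6 called (limma adjusted p 0.616 to 0.92; 0 unadjusted), where 3.66% of 6914 genes were called. Against control they were -1.09 ± 0.70 (Zscan4e) to -0.20 ± 0.42 (Zscan4f), with 0 of 6 called (adjusted p 0.333 to 0.775; 0 unadjusted), where 5.96% of 6897 genes were called. By fold alone, 1 of 6 members was at least 2-fold lower than control, Zscan4e, against 36.2% of 8639 genes. Zscan4e was the member whose libraries did not overlap, at 4.94 and 11.1 FPKM with both agents and 22.3 and 12.9 in control. All genes tested had a median difference of -0.548 and -0.625 in these comparisons with FK866 and with control, which was below that of the summed members at -0.17 and -0.41. Relative to that median, the sign of the members' sum turned to 0.38 and 0.22. The measures differ, since the sum was taken before the log and the median was over single genes. Taken as single genes, the members had medians of -0.30 and -0.54, nearer to those of all genes.

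The column headed late 2-cell TSA, which the study's tables do not give to TSA, had very little Zscan4 RNA. Zscan4c stood at 0.77 and 0.67 FPKM against 126.4 and 47.7 in control, Zscan4f at 3.28 and 2.82 against 136.7 and 79.3, and Zscan4d at 0.45 and 6.81 against 147.3 and 103.7. Every library of the column lay below every control library for all 6 members, a separation that was not counted over all genes. The differences ran from -5.52 ± 0.65 for Zscan4c to -3.25 ± 0.64 for Zscan4b, and 6 of 6 members were called lower (limma adjusted p 0.000616 to 0.0094), where 10.1% of 6926 genes were called lower. The median of the members was -4.64, against -0.34 for all genes tested. Zscan4b had 0 and 3 reads in this column against 122 and 67 in control, a ratio of reads per total of 0.0127 with an exact 95% interval of 0.00259 to 0.0376 that covers counting error only. By the tables this column is the 4-cell control, and the same numbers then describe 4-cell con against late 2-cell con embryos. It held the tabulated 4-cell control values in all 84 genes compared. It moved in the direction tabulated for TSA in 540 of 1197 genes.

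By the tables, the TSA embryos are the single library headed 4-cell FK866. There Zscan4d kept 47.3 FPKM, above its early 2-cell libraries of 34.4 and 24.8, while Zscan4f had 16.9, Zscan4c 12.5, Zscan4a 10.3, Zscan4b 2.49 and Zscan4e 1.55. All 6 members were below both control libraries, with differences from -2.82 ± 0.86 for Zscan4e to -1.37 ± 1.04 for Zscan4d. Zscan4f (-2.55 ± 0.51, limma adjusted p = 0.0106) was the member called lower, where 3.45% of 7401 genes were called lower. With only the libraries of these columns fitted, 0 of 6 were called. The summed members were below control under either reading, at a log2 difference of -5.28 by header and -2.14 by table. The 2 other genes of the cluster called lower under the second reading were Zscan4-ps2 (-2.66 ± 0.57) and Zscan4-ps3 (-2.19 ± 0.51), at adjusted p 0.0142 and 0.021. In the same library Kdm1a, which encodes a histone demethylase that represses 2-cell genes, was lower than in control (-3.21 ± 0.48). Genes of the 2-cell programme went both ways there. Gm4340 stood at 843.7 FPKM against 124.6 in control, but Ubtfl1 at 7.28 against 80.9 and Tdpoz1 at 15.4 against 34.2. The 11 genes of that list tested had a median difference of 0.32, against 0.10 for all genes.

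Sirt1 was targeted to ask whether this deacetylase bears on the same genes. In the column headed late 2-cell Sirt1, Zscan4f stood at 8.32 and 8.05 FPKM, Zscan4c at 4.83 and 14.6, Zscan4d at 2.33 and 5.69, and Zscan4a at 0.92 and 4.43. All 6 members lay below both control libraries, by differences from -4.72 ± 0.85 for Zscan4d to -1.95 ± 0.64 for Zscan4b. By limma 5 of 6 were called lower (adjusted p 0.00212 to 0.0321) and Zscan4b was not (adjusted p = 0.0801), where 7.3% of 7030 genes were called lower. The count fell to 3 when only these 2 columns were fitted, where 5.99% of 7030 genes were called in either direction. It also fell without library A of the control or library A of the column headed late 2-cell Sirt1. Each of those fits left 1 library in a group, and their share over all genes is not given here. With 1 library left out at a time, the log2 difference of the summed members ran from -4.38 to -3.37. By the tables this column is 4-cell FK866, and the Sirt1 embryos are the single library headed 4-cell FK866 NMN.

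In that library the cluster was much closer to control. Zscan4f stood at 75.6 FPKM, Zscan4d at 69.6, Zscan4c at 43.9, Zscan4a at 14.6, Zscan4e at 9.29 and Zscan4b at 6.27, each below both control libraries. The differences were -1.85 ± 0.94 for Zscan4a and between -0.82 and -0.46 for the other 5, and 0 of 6 were called (limma adjusted p 0.539 to 0.83; 0 at an unadjusted p under 0.05), where 1.38% of 6890 genes were called in either direction. The size of the effect on the sum thus depended on the reading of the columns, at -3.79 by header and -0.88 by table.

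**Figure D3:**
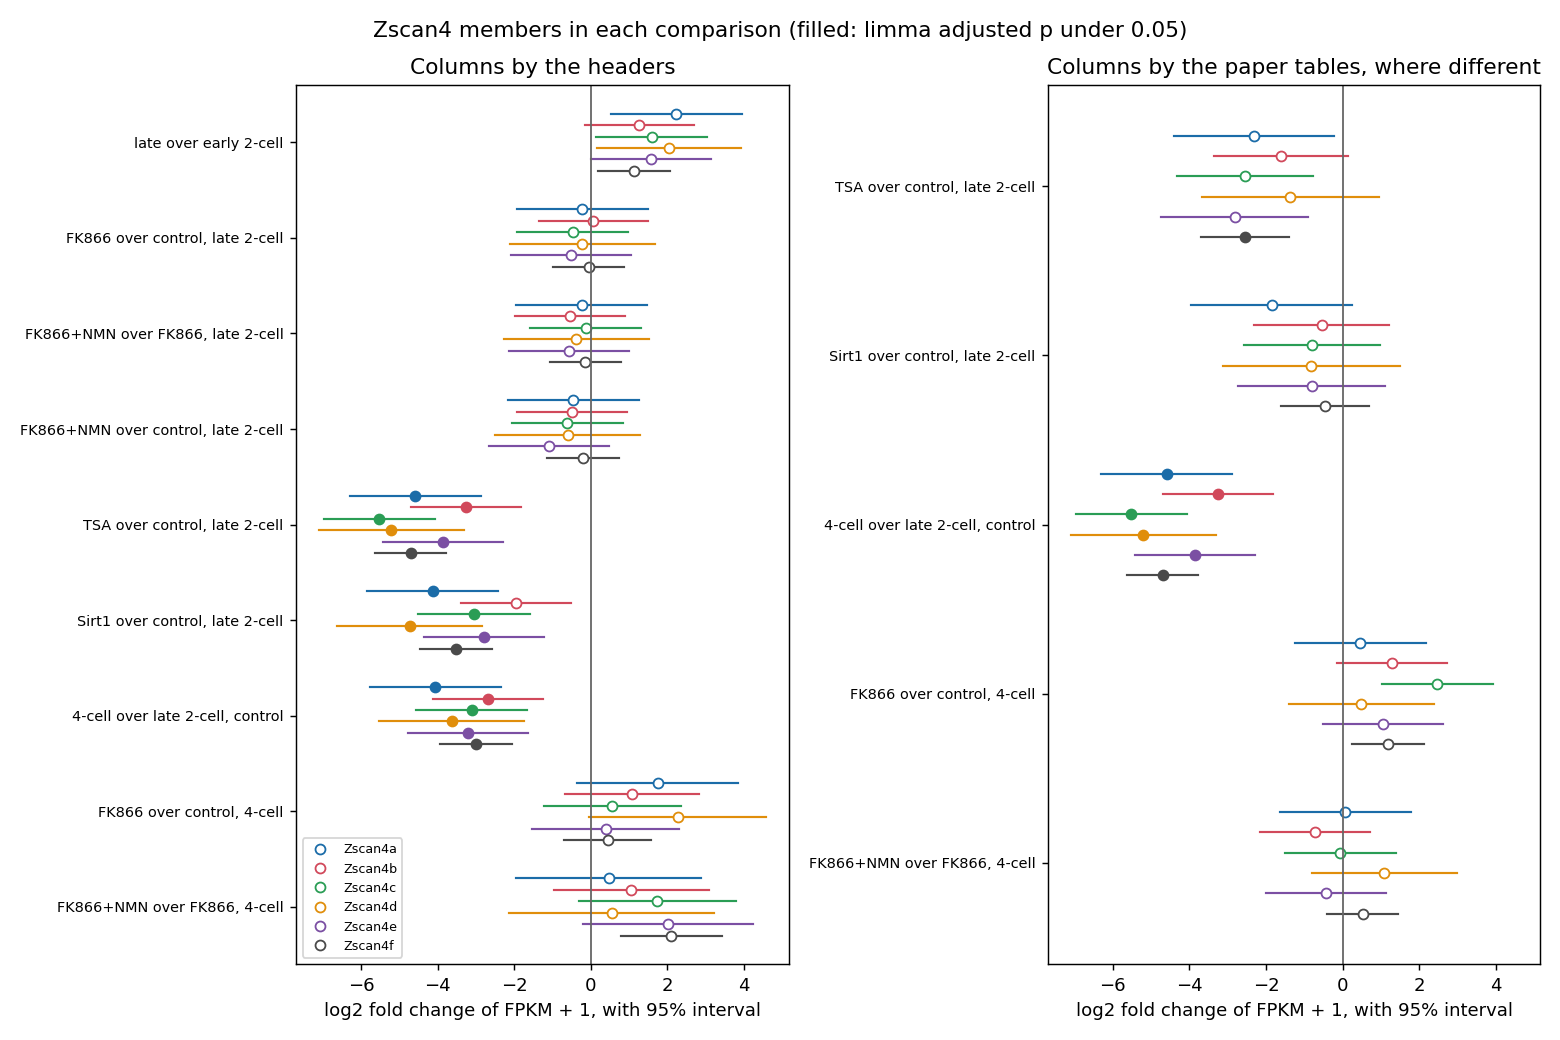
Difference of each member on the log2(FPKM + 1) scale with its 95% interval from limma, for the 9 comparisons with columns read by header (left) and for the 5 that change when read by the study's tables (right); filled points have an adjusted p under 0.05. Filled points fall in the comparisons of columns headed late 2-cell TSA, late 2-cell Sirt1 and 4-cell con with late 2-cell con, and for Zscan4f in the TSA comparison by table.

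Late 2-cell and 4-cell control embryos were compared to see the cluster after the 2-cell stage. By header, Zscan4f stood at 12.0 and 12.3 FPKM in 4-cell embryos, Zscan4d at 5.06 and 15.6, Zscan4c at 9.23 and 7.10, and Zscan4a at 1.76 and 3.12. All were below both late 2-cell libraries, with differences from -4.06 ± 0.77 for Zscan4a to -2.68 ± 0.64 for Zscan4b. By limma 6 of 6 were called lower (adjusted p 0.00474 to 0.0322), where 5.27% of 7119 genes were called lower. The count fell in all 4 fits that left out 1 library of these columns. Each of those fits left 1 library in a group, and their share over all genes is not given here. The log2 difference of the summed members ran from -3.81 to -3.10 with 1 library left out. Under the tables, the 4-cell control is the column headed late 2-cell TSA, and again 6 of 6 were lower, where 10.1% of genes were called lower. The direction was therefore the same in both readings, with Zscan4c at 8.16 FPKM per library by header and 0.72 by table. Nlrp5, an oocyte gene of the subcortical maternal complex, was lower as well, at -2.68 ± 0.50 by header and -4.18 ± 0.50 by table (adjusted p 0.0127 and 0.00128).

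FK866 in 4-cell embryos went with a higher sum of Zscan4 RNA than control under both readings of the columns, but 0 of 6 members passed the test. By header, the library headed 4-cell FK866 had 47.3 FPKM of Zscan4d against 5.06 and 15.6 in the 4-cell con column, and 10.3 of Zscan4a against 1.76 and 3.12. Zscan4c, at 12.5 against 9.23 and 7.10, Zscan4f, at 16.9 against 12.0 and 12.3, Zscan4b, at 2.49 against 0.41 and 0.96, and Zscan4e, at 1.55 against 0.92 and 0.96, were also above both. The differences ran from 0.39 ± 0.86 for Zscan4e to 2.26 ± 1.04 for Zscan4d, and 0 of 6 were called (limma adjusted p 0.132 to 0.747; 0 unadjusted), where 26.2% of 7390 genes were called in either direction. At least 2-fold higher by column were 3 of 6 members, against 41.8% of 9368 genes. The summed members were 2.62 times the control, and the median of all genes tested was 0.27.

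By the tables, FK866 at the 4-cell stage is the column headed late 2-cell Sirt1 and its control the column headed late 2-cell TSA. Zscan4c then stood at 4.83 and 14.6 FPKM against 0.77 and 0.67, and Zscan4f at 8.32 and 8.05 against 3.28 and 2.82. Zscan4b and Zscan4e were also above in both libraries, and Zscan4a and Zscan4d overlapped. The differences reached 2.47 ± 0.65 for Zscan4c, and 0 of 6 were called (limma adjusted p 0.257 to 0.886), where 0.199% of 6042 genes were called in either direction. Zscan4c and Zscan4f had an unadjusted p under 0.05, as did 481 of the 6042 genes tested. The sum was 3.01 times the control. Whether the effect of FK866 on a member differed between 4-cell and late 2-cell embryos was tested as the difference of the log2 differences, and 0 of 6 members passed in either reading (adjusted p 0.262 to 0.659 by header and 0.42 to 0.89 by table), where 11.4% of 7390 and 0.0% of 6042 genes passed. Unadjusted, 0 members by header and 1 by table, Zscan4c, had a p under 0.05.

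With NMN added to FK866 at the 4-cell stage, the readings of the columns gave different pictures. By header, 1 library was set against 1, and all 6 members were higher in the library headed 4-cell FK866 NMN, Zscan4f at 75.6 against 16.9 FPKM and Zscan4e at 9.29 against 1.55. The differences ran from 0.47 ± 1.08 for Zscan4a to 2.10 ± 0.59 for Zscan4f, and 0 of 6 were called (limma adjusted p 0.0573 to 0.842), with Zscan4f at an unadjusted p of 0.00538, where 8.91% of 7013 genes were called in either direction. At least 2-fold higher were 4 of 6 members, against 25.0% of 8929 genes. These single libraries were assumed to vary like the other groups. By the tables, 3 members were higher and 3 lower, from -0.73 ± 0.64 for Zscan4b to 1.09 ± 0.85 for Zscan4d, and 0 of 6 were called (adjusted p 0.98 to 1.0; 0 unadjusted), where 0.236% of 6344 genes were called in either direction. Whether the effect of NMN differed between the stages was also tested, and 0 of 6 members passed in either reading, the lowest adjusted p being 0.0936 for Zscan4f by header, where 7.71% of genes passed by header and 0.284% by table. Unadjusted, 1 member by header, Zscan4f, and 0 by table had a p under 0.05.

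The make-up of the Zscan4 reads differed between libraries of the same column. Shares of the summed reads of the 6 members were used, with Wilson 95% intervals that cover counting error only. Over the 16 libraries the median share was 30.2% for Zscan4d, 29.8% for Zscan4f, 19.9% for Zscan4c, 12.0% for Zscan4a, 2.7% for Zscan4e and 2.1% for Zscan4b. Zscan4d ranged from 6.4% to 63.1%, and both ends came from the pair headed late 2-cell TSA, in which library A had 7 of 109 reads on Zscan4d and 43 on Zscan4a, and library B had 101 of 160 on Zscan4d and 7 on Zscan4a. Zscan4d and Zscan4a, the members best told apart by sequence, thus stood in opposite order in these 2 libraries, and Zscan4d was above Zscan4a in the other 4 libraries of the 3 lowest columns. Zscan4f ranged from 16.6% in the library headed 4-cell FK866 to 42.6% in library A of the column headed late 2-cell Sirt1.

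**Figure D4:**
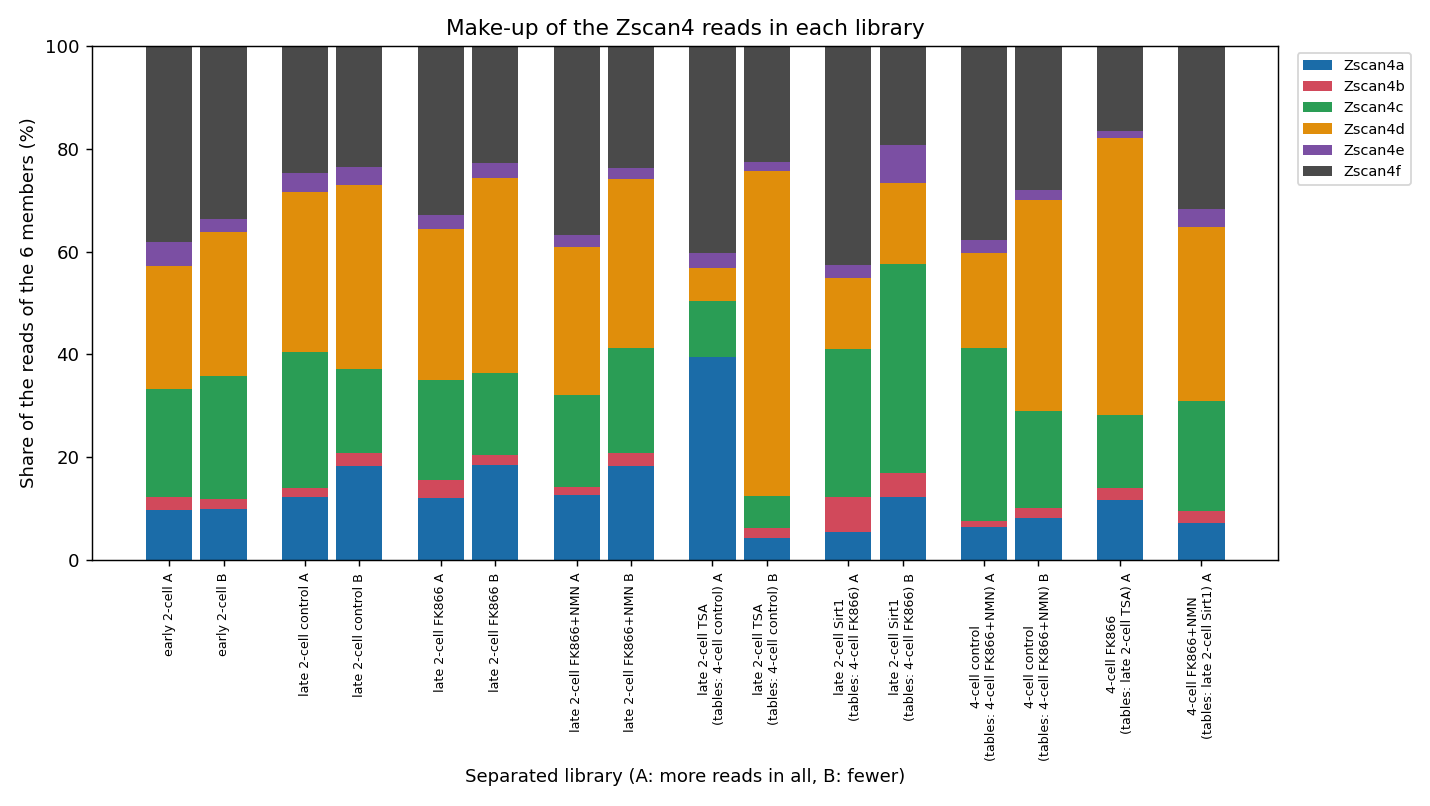
Share of the reads of the 6 members taken by each, in percent, in the 16 separated libraries; A is the library of a column with more reads in all. In late 2-cell con, FK866 and FK866 NMN, library B has the larger share of Zscan4a (18.2% to 18.4%) each time, and the pair headed late 2-cell TSA holds both the lowest and the highest share of Zscan4d.

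Zscan4a and Zscan4d together, for which most exon windows are unique, took 33.6% (31.4 to 35.8) and 37.9% (34.9 to 41.1) of the reads in early 2-cell embryos. In late 2-cell con, FK866 and FK866 NMN the shares were 43.2%, 41.6% and 41.5% in library A and 54.0%, 56.3% and 51.1% in library B. The 2 libraries of each of these columns had intervals that did not overlap, such as 42.0 to 44.3 and 52.2 to 55.9 in con, and the gap recurred in every one of the 3 columns. Zscan4a alone showed it too, at 12.2%, 12.2% and 12.7% in library A and 18.3%, 18.4% and 18.2% in library B. The letters were given by library size, so they do not tie libraries of different columns together. The lowest shares of Zscan4a and Zscan4d together were 19.3% in library A headed late 2-cell Sirt1 and 24.9% in library A headed 4-cell con, and the highest were 67.5% in library B headed late 2-cell TSA and 65.6% in the library headed 4-cell FK866.

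The pairs of members closest in sequence had the most even ratios, and the order of the other pairs did not follow identity strictly. The SD over the 16 libraries of the log2 ratio of FPKM + 1 was 0.46 for Zscan4b and Zscan4e (99.7% identity) and 0.505 for Zscan4c and Zscan4f (99.5%), the lowest of the 15 pairs. It was highest for Zscan4b and Zscan4d at 1.11 and for Zscan4d and Zscan4e at 1.08, whose identities were 96.6% and 96.9%. In between, Zscan4e with Zscan4f (97.7%) and with Zscan4c (97.6%) had SDs of 0.667 and 0.669, below Zscan4a with Zscan4f (98.4%) at 0.721 and with Zscan4c (98.0%) at 0.803. The relation is given without a test, since pairs share members, and the added 1 shrinks the ratio of the low members Zscan4b and Zscan4e. Reads shared between near-identical copies would move with the same pairs, and their part in these ratios was not tested. Over the 9 columns the members' levels correlated with each other at Pearson r 0.87 (Zscan4d and Zscan4e) to 0.97 (Zscan4c and Zscan4f), with columns as the points and the same libraries behind both members.

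**Figure D5:**
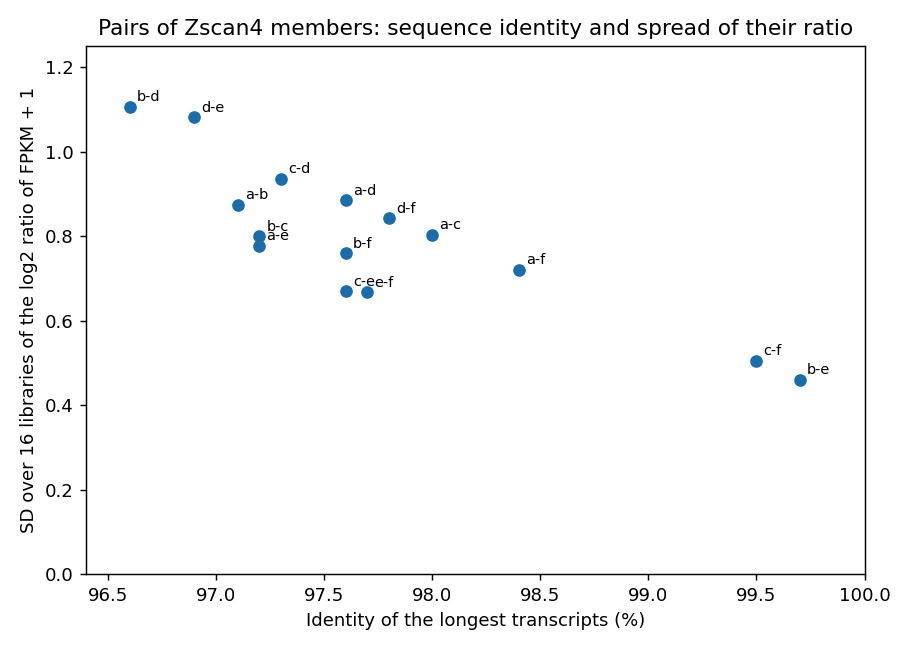
Each point is a pair of members, by the identity of their longest transcripts in percent and the SD over 16 libraries of the log2 ratio of their FPKM + 1. Pairs b-e and c-f, at 99.7% and 99.5% identity, have the lowest SDs, 0.46 and 0.505, and pairs b-d and d-e, at 96.6% and 96.9%, the highest, 1.11 and 1.08.

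Of the other Zscan4 symbols, Zscan4-ps2 and Zscan4-ps3 were high and low in the same columns as the members, and Zscan4-ps1 differed in part. Zscan4-ps2, whose transcript was 99.8% identical to that of Zscan4f, stood at 81.9 and 44.8 FPKM in late 2-cell con, at 60.6 and 66.7 with FK866 and at 56.1 and 59.2 with FK866 and NMN. In the pair headed late 2-cell TSA it had 1.47 and 1.28. Zscan4-ps3 gave 78.6 and 54.0 in con and 3.20 and 1.68 in the pair headed late 2-cell TSA. Both thus lay at the level of coding members and above Zscan4b and Zscan4e in late 2-cell con. All 3 were called lower in the columns headed late 2-cell TSA and late 2-cell Sirt1 against late 2-cell con, and Zscan4-ps2 and Zscan4-ps3 in the column headed 4-cell con. Of all genes, 10.1%, 7.3% and 5.27% were called lower in these comparisons. Zscan4-ps1 gave 21.8 and 10.0 FPKM in late 2-cell con, inside whose range both early libraries lay, at 15.6 and 14.4. With FK866 it stood at 26.0 and 26.2, above both control libraries (0.77 ± 0.55, adjusted p = 0.564), where the libraries of all 6 members overlapped. In the column headed 4-cell con it was at 3.99 and 2.67 and was not called (adjusted p = 0.0627).

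The genes whose pattern over the 9 columns was most like the summed members were found by Pearson r on log2 levels among 8063 genes. The 10 nearest were Tiparp (r = 0.98), Smim14, Pld1, Add1, Prkaca, Uba3, Parp12, Yap1, Stbd1 and Hirip3 (r = 0.96), and 20 genes had r above 0.95. Tiparp and Parp12 encode mono-ADP-ribosyltransferases, which use NAD+ as their substrate, Pld1 a phospholipase, Prkaca a catalytic subunit of protein kinase A, and Yap1 the transcriptional coactivator of the Hippo pathway. Tiparp stood at 370.1 FPKM in late 2-cell con, 644.6 with FK866 and NMN and 26.4 in the column headed late 2-cell TSA, and Parp12 at 195.6, 235.0 and 2.17. With 9 columns as points and the same libraries behind both sides, these values are a description. By Spearman's rho 3 of the 10 were again among the nearest, Yap1 first.

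Within 1 Mb of the outermost members 42 genes were in the table and 29 reached 1 FPKM per library in a column, and their sum was 83.3 FPKM in late 2-cell con, 32.4 in the column headed late 2-cell TSA and 180.4 in the library headed 4-cell FK866. In the comparison of late with early 2-cell embryos 0 of 17 tested were called higher and 1 lower, Gm45379, at 22.9 FPKM early and listed at 0 late, where 19.8% of all genes were called in either direction. Against late 2-cell con, the column headed late 2-cell TSA had 0 called neighbours among 14 tested, that headed late 2-cell Sirt1 had 0 among 12 and that headed 4-cell con 0 among 13, where 15.4%, 11.4% and 8.57% of all genes were called. Their median differences were -1.27, -1.23 and -0.53, and those of the members -4.64, -3.28 and -3.16.

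The other calls came from comparisons with the 2 single libraries. In the library headed 4-cell FK866, 3 of 14 neighbours, Vmn2r51, Zik1 and Gm17737, were called higher than in 4-cell con (26.2% of all genes were called in either direction), and 2 of 16, Zik1 and Gm17737, higher than in late 2-cell con (10.7% of all genes). In the library headed 4-cell FK866 NMN, 1 of 15, Gm45379, was called higher and 3, Zik1, Gm39481 and Gm17737, lower than in that headed 4-cell FK866 (8.91% of all genes), and Gm45379 alone of 14 higher than in late 2-cell con (1.38% of all genes). Zik1, a zinc finger gene, was above 0 in 3 of 9 columns, Gm45379 in 3 and Gm17737 in 2, and each call in these comparisons rests on a single library. Genes listed at 0 in more than 4 of the 16 libraries were called too often in simulated data. Without such genes 22.4% of all genes were called in place of 26.2%, 3.58% in place of 10.7%, 0.812% in place of 8.91% and 0.0% in place of 1.38%.

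The lists of genes known to act on Zscan4 or with it gave few calls. Of the activators 3 of 5 were in the table. Nelfa, which encodes a subunit of the negative elongation factor, stood at 74.8 FPKM in early 2-cell, 51.1 in late 2-cell con and 21.8 in the column headed late 2-cell TSA. Tbx3, a T-box factor, stood at 1.91, 8.62 and 8.61 in the same columns. Neither was called in any of the 9 comparisons by header or by table. Duxf3, the remaining activator, stood at 0.589 FPKM per library in late 2-cell con. It was at 2.115 with FK866 and at 0.904 with FK866 and NMN at that stage. Its reads could not be separated by library in these columns, so whether Duxf3 differed between them was not tested. Of the repressors 11 of 21 were in the table and tested. Rif1, a known silencer of Zscan4 in stem cells, stood at 33.4 FPKM in late 2-cell con and 28.7 in the column headed late 2-cell TSA, and Trim28, a heterochromatin corepressor, at 22.0 and 43.5. By limma 0 of 11 were called in the columns headed late 2-cell TSA, late 2-cell Sirt1 or 4-cell con against late 2-cell con. Of all genes, 15.4%, 11.4% and 8.57% were called there in either direction. The repressors' medians in these comparisons were -0.06, -0.10 and 0.24, against -0.34, -0.17 and -0.06 for all genes. In the single library headed 4-cell FK866 against 4-cell con, Kdm1a and Ehmt1, a histone methyltransferase gene, were lower at -3.77 ± 0.48 and -3.56 ± 0.77. They were 2 of 11 repressors tested, where 26.2% of 7390 genes were called in either direction. The 11 repressors had a median of -1.45 there, against 0.27 for all genes.

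Of the telomere and recombination genes 9 of 16 were in the table. Terf2, which encodes a telomere-binding protein of shelterin, was lower in late than in early 2-cell embryos (-2.72 ± 0.79, limma adjusted p = 0.0365). It was higher with FK866 and NMN than with FK866 alone in late 2-cell embryos by 3.38 ± 0.79 (adjusted p = 0.0476). In these comparisons 19.8% and 3.66% of all genes were called in either direction. Of the other genes on the list, 0 were called in the 9 comparisons in either reading. Acd, another shelterin gene, stood at 48.7 FPKM in late 2-cell con and 9.97 in the column headed late 2-cell TSA. In the 2-cell programme, 3 of 10 genes tested were called lower in the column headed late 2-cell TSA than in con, where 10.1% of 6926 genes were. They were Gm4340 (-5.77 ± 1.12, limma adjusted p = 0.0087), Tdpoz1 (-3.13 ± 0.83, adjusted p = 0.0324) and Usp17lc. The last, a deubiquitinase gene, was listed at 0 in the column headed late 2-cell TSA and at 5.07 FPKM in con. Tdpoz5 stood at 81.1 and 76.3 FPKM and Ubtfl1 at 80.9 and 97.6 in these columns, so not every 2-cell gene measured was lower where the Zscan4 members were.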

How the data were processed

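RNA-seq libraries were prepared from embryos of 9 groups. The authors used Trim Galore for trimming, HISAT2 for alignment to mm10 and featureCounts for counting, and deposited FPKM values, 1 column per group; CASAVA 1.4 stands in the submitters' processing notes. The settings for reads with several matches are not given in the sources used here. The FPKM values were multiplied by GENCODE M21 exon lengths (15360 of 15737 genes) and split into whole reads of 16 libraries, within a relative tolerance of 2e-09. Levels were compared as log2(FPKM + 1) in 1 limma fit over all libraries (limma 3.58.1, R 4.3.3), with p-values adjusted by Benjamini-Hochberg over genes that reached 1 FPKM per library in a column compared, and called at an adjusted p under 0.05. The procedure was tested on simulated data. Values after ± are standard errors from the fit. Library totals set the precision, and intervals on reads cover counting error only. Columns were read by header and, as an alternative, by the study's tables. The members and lists were chosen with earlier results of these data known. Named were the members, the pseudogene symbols, the 10 genes most alike in pattern and up to 4 genes per list by mean level; genes behind counts of 5 or fewer, and others outside this rule, were named after their values were seen. Sequences were compared with MAFFT 7.526 and pysam 0.24.0 under Python 3.11.15. Alternatives comprised pseudocounts of 0.1 and 5, other filters, centring, undivided columns, a 2-fold rule, leaving out libraries, and 2 chosen after seeing the data: leaving out genes at 0 in more than 4 libraries and fitting only the columns compared. H3K27ac profiles were not analysed here.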

Additional observations from a re-analysis of the deposited data

How the results depend on the processing

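Of 215 alternative values, 169 were labelled the same, 20 moved, 10 stronger, 9 weaker and 7 changed sign. A count was labelled the same if equal or near in ratio, so single members could still cross the threshold. A summed level or share was labelled the same if it shifted by less than the SD between libraries. A percent of windows was labelled the same if it lay inside the interval of the main value. No paired analysis was possible because the separated libraries carry no replicate number. Members called went from 0 to 6 (2-fold rule), 2 (pseudocount 5) and 2 (only the libraries of the 2 columns) in late over early 2-cell embryos, from 0 to 1 (2-fold rule) in FK866 with NMN over control, from 0 to 3 (2-fold rule) in 4-cell FK866 over control, and from 0 to 4 (2-fold rule), 1 (pseudocount 5) and 1 (centred on the median of all genes) in 4-cell FK866 with NMN over FK866. They went from 6 to 1 in TSA and from 5 to 0 in Sirt1 over control with columns read by the tables, and from 5 to 3 in Sirt1 with only the 2 columns fitted. Leaving out 1 library at a time gave 0 to 1 called in late over early 2-cell embryos (1 without library A of early 2-cell or library B of late 2-cell con), 1 to 5 in Sirt1 and 1 to 4 in 4-cell over late 2-cell embryos. The summed level (log2 difference) moved to -4.83 (pseudocount 5) and -2.14 (tables) in TSA, -0.88 (tables) in Sirt1, -5.28 (tables) in 4-cell over late 2-cell control, 0.38 in 4-cell FK866 over control with undivided columns and 0.29 (tables) in 4-cell FK866 with NMN over FK866. Among late 2-cell embryos it ran from -0.56 to 0.16 in FK866 over control when 1 library was left out. It was 0.02 without library A of FK866 and 0.16 without library A of con. In FK866 with NMN over FK866 it ran from -0.89 to 0.31. It was 0.31 without library A of FK866 with NMN and 0.15 without library B of FK866. In FK866 with NMN over control it ran from -1.13 to 0.0697. Centring turned the 2 comparisons with NMN to 0.38 and 0.22, though it set a summed level against a median of single genes. With windows of 50 and 150 bases, 63.7% and 25.1% of Zscan4a, 90.1% and 66.4% of Zscan4b, 85.5% and 61.0% of Zscan4c, 51.4% and 13.0% of Zscan4d, 89.0% and 75.0% of Zscan4e and 91.2% and 77.6% of Zscan4f were found elsewhere. By Spearman's rho 3 of the 10 genes most alike were shared. Beyond what reading the columns differently and using fewer libraries change by construction, the cause was not tested.

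Genes at 0 in more than 4 libraries were called too often in simulated data, so the share of all genes called was also computed without them: it went from 8.91% to 0.812% in 4-cell FK866 with NMN over FK866, from 10.7% to 3.58% in TSA over control by the tables, and from 0.716% to 0.0211% in late 2-cell FK866 over control, while members called stayed at 0, 1 and 0. With only the columns compared in the fit, late 2-cell FK866 over control and both comparisons with NMN had 0.0% of genes called, and 4-cell FK866 with NMN over FK866 by header could not be fitted. Member calls have no value with undivided columns. With 2 libraries a column, and 1 in 2 columns, the spread is estimated mostly across columns, and the lone libraries were assumed to vary like the others; members with few unique bases cannot be measured apart at any depth.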
